A study of Mus musculus with 18 samples.

Results

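Histone genes and Slbp are described here across single mouse oocytes taken before and after maturation in vitro. The members are all symbols of the GENCODE M21 annotation that begin with Hist and a cluster number, with H2af, H3f3 or H1f, without names marked -ps, plus Slbp. Of 88 such genes, 86 are among the 47069 genes of the files, and Hist1h2bm and Hist1h2bh are not analysed here. The 86 comprise 67 replication-dependent (Hist) genes, 17 variant histone genes, Slbp, and H3f3aos, a non-coding gene antisense to H3f3a. The rule goes by symbol and uses no measured value, but it was set with earlier results of these data known. A filter on low counts was passed by 37 of the 86 members: 26 of 67 Hist genes, 10 of 17 variant genes and Slbp. The members include 4 annotated pseudogenes, Hist1h2aj and Hist1h2al among the Hist genes and H2afy3 and H3f3c among the variant genes. None of these passed. No oocyte had a count for 15 members. The other 34 of the 49 members that did not pass had counts, with group means of at most 6.65 CPM (Hist1h2br) among Hist genes and 0.283 CPM (H1fx) among variant genes. By family, 3 of 6 H1, 5 of 20 H2A, 6 of 16 H2B, 5 of 12 H3 and 7 of 13 H4 Hist genes passed.

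All oocytes came from wild-type C57BL/6 mice. At 12 months (12m) and at 6 weeks (6wk) there were 3 kinds of oocyte. MSC-IVM-MII oocytes reached metaphase II in vitro while cultured together with MSC, an abbreviation that the labels leave unexplained. IVM-MII oocytes were matured in vitro without that co-culture, and GV oocytes were at the germinal vesicle stage, with an intact nucleus in meiotic prophase. Each of the 6 groups, MSC-IVM-MII-12m, MSC-IVM-MII-6wk, IVM-MII-12m, IVM-MII-6wk, GV-12m and GV-6wk, holds 3 oocytes, so there are 12 metaphase II and 6 GV oocytes. The labels name no animal or culture dish for any oocyte. Each group therefore counts as 1 sample, no test was made, and ± gives the SD among a group's 3 oocytes, which does not measure the spread between mice.

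Replication-dependent histone mRNAs are normally made in S phase and end in a conserved stem-loop instead of a poly(A) tail. Slbp, the stem-loop binding protein, binds that structure and acts in the processing, export and translation of these mRNAs; in mouse oocytes the protein is known to accumulate during maturation. Variant histones such as H3.3, H2A.Z and the oocyte linker histone H1foo are encoded by polyadenylated mRNAs and are deposited outside S phase. The libraries were made by SMART-seq2, which primes cDNA on A-rich 3' ends. A histone mRNA that ends at its stem-loop is therefore poorly copied, and a change in the amount of an mRNA and a change in the length of its tail cannot be told apart. The nucleus was spun down and the library made from the supernatant, so RNA held in a GV nucleus may be missing. Whether reads were counted by strand is not given in the sources used here.

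The stem-loop was looked for in the annotated transcripts with the pattern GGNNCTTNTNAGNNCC, read on the sense strand, where the first 6 bases pair with the last 6. It was found in 44 of 67 Hist genes and in 1 of 17 variant genes, H2afx, against 59 of 46488 genes overall (0.127%). Among these members 9 different stem-loops occurred, and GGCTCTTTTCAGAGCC was the commonest, in 24 genes. Of the 26 Hist genes that passed the filter 21 hold a stem-loop, and in 13 of these the annotated transcript runs on for 100 or more bases after it. Annotated transcripts may stop short of the 3' end, so a gene counted as without a stem-loop may still have one. The following sites belong to members whose levels are given below; capitals mark the stem-loop, lower case the flanking bases, and the sequences are from the GENCODE M21 transcripts (GRCm38).
Hist3h2a, chr11:58955167-58955192, plus strand: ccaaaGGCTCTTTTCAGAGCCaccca
Hist1h4h, chr13:23531453-23531478, plus strand: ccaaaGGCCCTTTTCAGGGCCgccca
H2afx, chr9:44335235-44335260, plus strand: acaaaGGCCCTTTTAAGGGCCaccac
Hist1h4c, chr13:23698084-23698109, minus strand: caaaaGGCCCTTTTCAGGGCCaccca
Hist2h2aa1, chr3:96246027-96246052, plus strand: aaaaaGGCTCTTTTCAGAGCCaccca
Hist1h2bj, chr13:22043633-22043658, plus strand: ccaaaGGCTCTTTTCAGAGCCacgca
Hist1h4n, chr13:21831793-21831818, minus strand: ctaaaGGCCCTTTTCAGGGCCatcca
Hist4h4, chr6:136803993-136804018, minus strand: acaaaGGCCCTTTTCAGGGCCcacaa
Hist3h2a, Hist1h4h and H2afx had a lower mean in every metaphase II group than in GV oocytes of the same age. The other 5 peaked in a single IVM-MII-12m oocyte. The sets are not exclusive: H2afx and Hist3h2a had their highest metaphase II value in that same oocyte. Hist2h2aa1, of the other 5, also had a lower mean than GV outside IVM-MII-12m. Sites from both sets share the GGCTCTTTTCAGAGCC and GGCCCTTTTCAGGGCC forms. The annotated transcripts of Slbp, H1foo, H1f0, H2afv and H2afj hold no stem-loop and carry AATAAA in their last 50 bases. The annotated transcript of Hist1h2bc, the Hist gene with the highest level in GV oocytes, holds neither.

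Total counts ran from 1914072 to 9193559 per oocyte, and values in CPM (counts scaled to a fixed library total) are shares of the recovered mRNA and not amounts per oocyte. Several libraries stood apart. The 10 oocyte markers checked summed to 3474 to 8557 CPM in 10 metaphase II oocytes and 24742 to 52975 CPM in 5 GV oocytes, but to 17399.8 and 21733 CPM in MSC-IVM-MII-6wk oocyte 1 and IVM-MII-6wk oocyte 1, and to 6953 CPM in GV-12m oocyte 3. GV-12m oocyte 3 had 1881 summed CPM of 15 cumulus and granulosa cell markers, against 0 to 241 in the other 17 oocytes. MSC-IVM-MII-6wk oocyte 1 and IVM-MII-6wk oocyte 1, both with titles that begin Y01, had 3.03% and 3.22% of counts from mitochondrially encoded genes, against 6.04% to 14.9% in the other 10 metaphase II oocytes and 0.917 to 3.70% in GV oocytes. Mesenchymal markers summed to at most 7.32 CPM in co-cultured oocytes. No title prefix is shared between ages, so age and prefix cannot be told apart.

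Slbp mRNA made up a larger share of the library in every metaphase II oocyte than in any GV oocyte. It had 2819, 4988 and 4264 CPM in MSC-IVM-MII-12m oocytes and 8358, 9888 and 11469 CPM in MSC-IVM-MII-6wk oocytes. IVM-MII oocytes had 6325, 4617 and 8242 CPM at 12m and 6881, 6665 and 9075 CPM at 6wk. GV oocytes had 527, 1154 and 602 CPM at 12m and 1257, 2191 and 735 CPM at 6wk. The metaphase II and GV values did not overlap at either age. Differences of mean log2(CPM + 1) were 2.45 for MSC-IVM-MII-12m minus GV-12m, 2.96 for MSC-IVM-MII-6wk minus GV-6wk, 3.12 for IVM-MII-12m minus GV-12m and 2.56 for IVM-MII-6wk minus GV-6wk. As ratios of mean CPM these were 5.28-fold, 7.10-fold, 8.40-fold and 5.41-fold, in the same order. By TPM, a transcript share corrected for length that allows genes to be compared, Slbp ranked between 16 and 85 among all genes in the 12 metaphase II oocytes, and between 78 and 964 in the 6 GV oocytes. Taken within each title prefix held by both groups and averaged over prefixes, the 4 differences were 2.11, 3.09, 2.999 and 2.73. The gene lies at chr5:33634952-33652574 (minus strand, GRCm38) and overlaps the predicted gene Gm10459 on the opposite strand.

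Among co-cultured oocytes Slbp was lower at 12m than at 6wk, with 4024 ± 1104 CPM in MSC-IVM-MII-12m and 9905 ± 1556 CPM in MSC-IVM-MII-6wk oocytes (SD, n = 3 each). The log2 difference was -1.33, and every 12m value lay below every 6wk value. Without co-culture the same comparison overlapped, with 6395 ± 1814 CPM in IVM-MII-12m and 7540.3 ± 1334 CPM in IVM-MII-6wk oocytes and a difference of -0.26. GV oocytes differed by -0.82 and overlapped. The difference between these age contrasts was not tested.

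**Figure D1:**
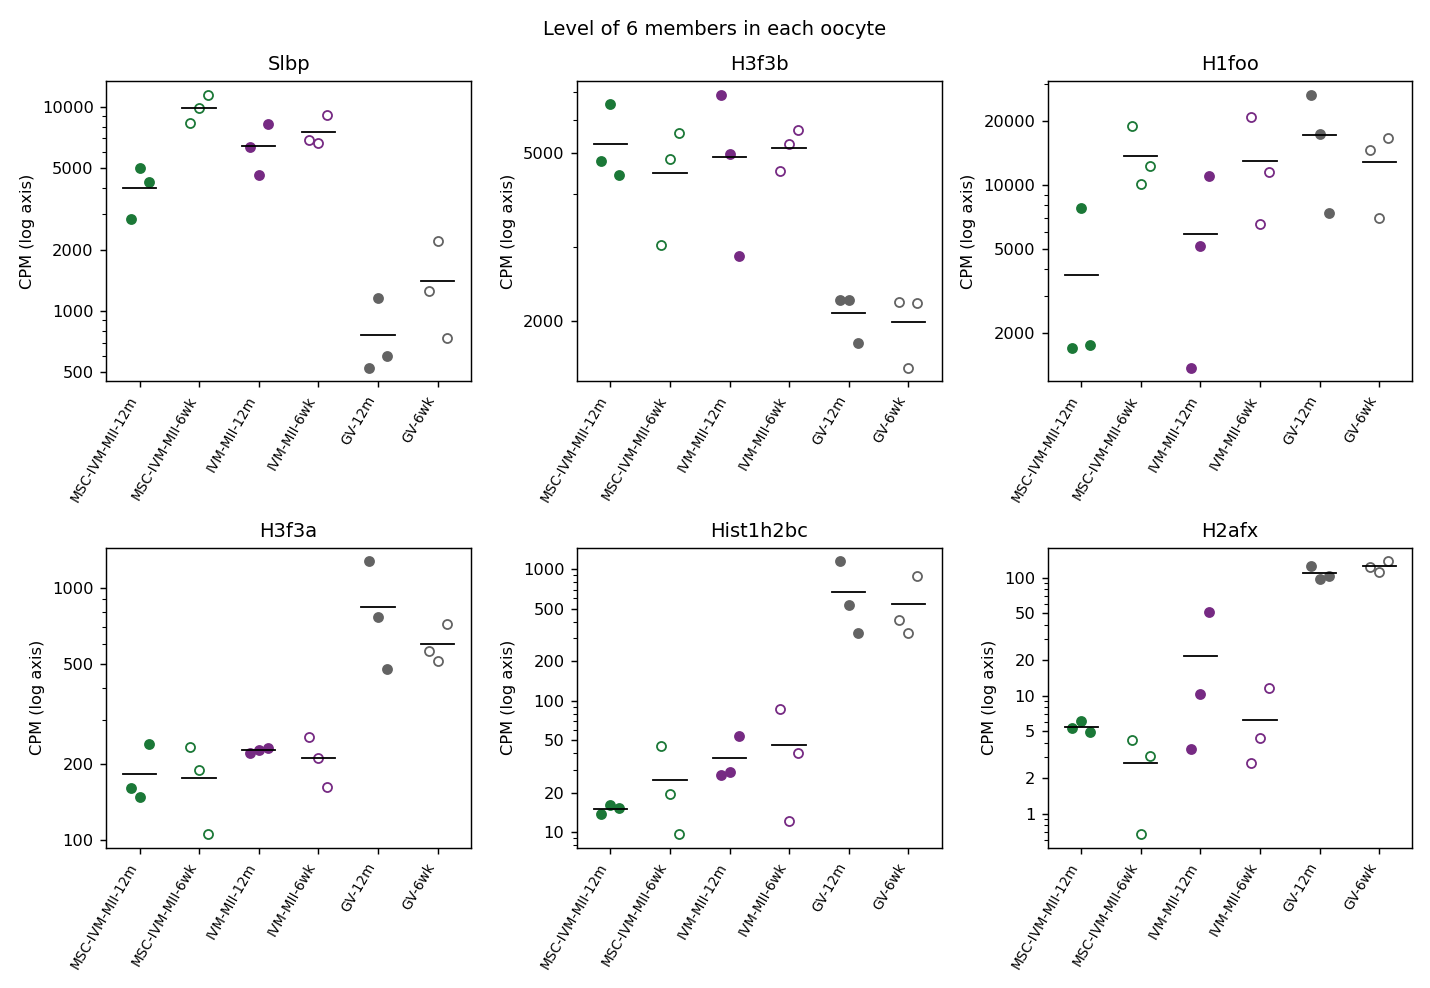
Level in CPM (log axis) of Slbp, H3f3b, H1foo, H3f3a, Hist1h2bc and H2afx in each of the 18 oocytes. Points are oocytes, filled at 12m and open at 6wk, and bars are the means of 3. All metaphase II points (green with co-culture, purple without) lie above all GV points (grey) for Slbp and H3f3b and below them for H3f3a, Hist1h2bc and H2afx, while H1foo overlaps.

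H1foo, the linker histone of oocytes and early embryos, was the most abundant mRNA of the set by TPM in most oocytes, with H3f3b above it in MSC-IVM-MII-12m oocyte 1 and IVM-MII-12m oocyte 1 and Slbp highest in MSC-IVM-MII-12m oocyte 3. It supplied 94.8 to 99.6% of all linker histone TPM in metaphase II oocytes and 99.2 to 99.8% in GV oocytes. It ranked first among all genes in 2 metaphase II and 3 GV oocytes, and its lowest rank was 107, in IVM-MII-12m oocyte 1. H1foo (chr6:115944938-115950236, plus strand) had 1696, 7813 and 1758 CPM in MSC-IVM-MII-12m oocytes and 18949.9, 10101 and 12252 CPM in MSC-IVM-MII-6wk oocytes. Without co-culture it had 1368, 5174 and 11031 CPM in IVM-MII-12m oocytes and 20928, 6508 and 11467 CPM in IVM-MII-6wk oocytes. GV oocytes had 26737, 17482 and 7367 CPM at 12m and 14656, 6986 and 16693 CPM at 6wk. The lowest values were those of 3 metaphase II oocytes at 12m, and the 6wk metaphase II values spanned those of GV-6wk oocytes.

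Relative to GV oocytes of the same age, H1foo was lower at 12m, by log2 differences of -2.40 in MSC-IVM-MII-12m and -1.82 in IVM-MII-12m oocytes, although single values overlapped in both. Without IVM-MII-12m oocyte 1 the second of these became -0.999, just short of 2-fold, and within title prefixes it was -1.07. At 6wk the differences were 0.15 in MSC-IVM-MII-6wk and -0.04 in IVM-MII-6wk oocytes. Between ages, co-cultured oocytes differed by -2.22 with no overlap (12m minus 6wk). IVM-MII oocytes differed by -1.44 with overlap, and by -0.62 without IVM-MII-12m oocyte 1. GV oocytes differed by 0.34. The 2 highest metaphase II values belong to the 2 oocytes with Y01 titles and the lowest mitochondrial shares of that stage. The part of those libraries in the 6wk levels was not tested.

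H1f0, a linker histone usually linked to differentiated, non-dividing cells, was far less abundant by TPM. It had 121, 248 and 178 CPM in MSC-IVM-MII-12m oocytes and 159.5, 136 and 227 CPM in MSC-IVM-MII-6wk oocytes. The IVM-MII oocytes had 74.9, 102.2 and 134 CPM at 12m and 213, 144 and 169.8 CPM at 6wk, and the GV oocytes 39.0, 93.9 and 81.8 CPM at 12m and 59.7, 85.4 and 35.8 CPM at 6wk. The metaphase II oocytes were above the GV oocytes of their age in 3 of the 4 comparisons, all but IVM-MII-12m. Log2 differences were 1.37 for MSC-IVM-MII-12m minus GV-12m, 1.57 for MSC-IVM-MII-6wk minus GV-6wk, 0.58 for IVM-MII-12m minus GV-12m and 1.59 for IVM-MII-6wk minus GV-6wk. The first fell short of 2-fold without GV-12m oocyte 1, at 0.99, and within title prefixes, at 0.86. Of the replication-dependent linker histones, 3 of 6 genes passed the filter, and together the 6 reached 6.22 to 54.7 TPM in metaphase II and 11.7 to 37.8 TPM in GV oocytes.

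The 2 genes for H3.3, which encode the same protein, differed between stages in opposite directions. H3f3b (chr11:116021912-116027962, minus strand) had 4800.1, 6524 and 4445 CPM in MSC-IVM-MII-12m oocytes and 3035, 4835 and 5574 CPM in MSC-IVM-MII-6wk oocytes. It had 6881, 4970.2 and 2850.1 CPM in IVM-MII-12m oocytes and 4529, 5250.4 and 5662 CPM in IVM-MII-6wk oocytes. GV oocytes had 2241, 2242 and 1772 CPM at 12m and 2214, 1549 and 2209.6 CPM at 6wk. Every metaphase II value was above every GV value, with log2 differences of 1.32 for MSC-IVM-MII-12m minus GV-12m, 1.14 for MSC-IVM-MII-6wk minus GV-6wk, 1.15 for IVM-MII-12m minus GV-12m and 1.38 for IVM-MII-6wk minus GV-6wk. These lie near the 2-fold limit. The third became 0.86 without IVM-MII-12m oocyte 1, and the second became 0.96 without MSC-IVM-MII-6wk oocyte 3 and 0.97 without GV-6wk oocyte 2. Within title prefixes the second was also short of 2-fold, at 0.97.

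H3f3a (chr1:180800832-180813943, minus strand) was lower in every metaphase II oocyte. Co-cultured oocytes had 161, 148 and 239 CPM at 12m and 233, 189 and 105.3 CPM at 6wk. The IVM-MII oocytes had 222, 228 and 231 CPM at 12m and 257, 212 and 162 CPM at 6wk, and the GV oocytes 1274, 767 and 475 CPM at 12m and 563, 513 and 717 CPM at 6wk. The GV values lay 4.59-fold, 3.40-fold, 3.70-fold and 2.84-fold above those of MSC-IVM-MII-12m, MSC-IVM-MII-6wk, IVM-MII-12m and IVM-MII-6wk, as ratios of means. H3f3b supplied 84.0 to 95.5% of the summed TPM of both genes in metaphase II oocytes, against 46.6 to 68.6% in GV oocytes, with no overlap. H3f3aos, which overlaps H3f3a on the other strand, had 3 counts in IVM-MII-6wk oocytes and none elsewhere.

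H2afx, H2afj, H2afv and H2afy2, 4 genes of H2A variants, were lower in all metaphase II groups than in GV oocytes. H2afx encodes H2A.X, which is phosphorylated at DNA breaks. It had 5.35, 6.11 and 4.95 CPM in MSC-IVM-MII-12m oocytes and 4.23, 0.669 and 3.11 CPM in MSC-IVM-MII-6wk oocytes. The IVM-MII oocytes had 3.51, 10.2 and 50.7 CPM at 12m and 2.70, 4.35 and 11.7 CPM at 6wk, and the GV oocytes 125, 97.3 and 103.3 CPM at 12m and 123, 112 and 137 CPM at 6wk. The highest metaphase II value, in IVM-MII-12m oocyte 3, was below the lowest GV value. Log2 differences were -4.08 for MSC-IVM-MII-12m minus GV-12m, -5.24 for MSC-IVM-MII-6wk minus GV-6wk, -2.98 for IVM-MII-12m minus GV-12m and -4.30 for IVM-MII-6wk minus GV-6wk.

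H2afj, the gene of H2A.J, had 14.7, 0 and 14.6 CPM in MSC-IVM-MII-12m oocytes and 8.45, 1.34 and 9.32 CPM in MSC-IVM-MII-6wk oocytes. IVM-MII oocytes held 10.1, 7.01 and 13.2 CPM at 12m and 1.803, 15.5 and 15.99 CPM at 6wk, against 163, 111 and 58.0 CPM in GV-12m and 94.4, 42.6 and 135 CPM in GV-6wk oocytes. No metaphase II value reached the lowest GV value, and log2 differences ran from -4.03 (MSC-IVM-MII-12m) to -3.16 (IVM-MII-6wk). H2afv, one of 2 genes of H2A.Z, had 21.4, 9.16 and 21.4 CPM in MSC-IVM-MII-12m oocytes and 9.51, 36.8 and 6.56 CPM in MSC-IVM-MII-6wk oocytes. It had 32.0, 12.6 and 42.9 CPM in IVM-MII-12m and 5.41, 28.6 and 15.7 CPM in IVM-MII-6wk oocytes, and 117, 93.2 and 108 CPM in GV-12m and 57.5, 56.2 and 86.2 CPM in GV-6wk oocytes. Its log2 differences lay between -2.63 (MSC-IVM-MII-12m) and -1.98 (IVM-MII-12m), with no overlap. H2afy2, which encodes macroH2A2, had 0, 4, 9 and 3 counts in the 4 metaphase II groups and 135 and 96 counts in GV-12m and GV-6wk.

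H2afz and H2afy did not separate in that way. H2afz, the second H2A.Z gene, had 140.1, 101.8 and 162 CPM in MSC-IVM-MII-12m oocytes and 129, 64.2 and 76.0 CPM in MSC-IVM-MII-6wk oocytes. It had 227, 99.4 and 247 CPM in IVM-MII-12m oocytes and 57.9, 146 and 134 CPM in IVM-MII-6wk oocytes. GV oocytes had 225, 221 and 583 CPM at 12m and 92.5, 85.6 and 349 CPM at 6wk. The highest value was in GV-12m oocyte 3, the oocyte with granulosa markers, whose part in it was not tested. The one 2-fold difference after maturation, -1.21 for MSC-IVM-MII-12m minus GV-12m, was -0.75 without that oocyte. H2afy, the gene of macroH2A1, had 4.91, 30.5 and 13.3 CPM in MSC-IVM-MII-12m oocytes and 12.3, 0 and 4.14 CPM in MSC-IVM-MII-6wk oocytes. It had 30.4, 61.7 and 11.04 CPM in IVM-MII-12m and 17.6, 33.2 and 7.42 CPM in IVM-MII-6wk oocytes, and 23.6, 22.8 and 37.0 CPM in GV-12m and 11.8, 14.6 and 14.5 CPM in GV-6wk oocytes. Its values overlapped between stages, and its log2 difference was -1.84 for MSC-IVM-MII-6wk minus GV-6wk, or -0.82 without MSC-IVM-MII-6wk oocyte 2, which had no count.

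Hist1h2bc, a histone H2B gene (chr13:23684199-23692908, plus strand), dominated the replication-dependent class in GV oocytes. It supplied 53.2 to 66.1% of the summed TPM of all 67 Hist genes there. Its level was 13.8, 16.1 and 15.2 CPM in MSC-IVM-MII-12m oocytes and 45.2, 19.7 and 9.67 CPM in MSC-IVM-MII-6wk oocytes. The IVM-MII oocytes had 27.3, 29.1 and 54.3 CPM at 12m and 86.3, 12.1 and 40.2 CPM at 6wk, and the GV oocytes 1149, 537 and 327 CPM at 12m and 414, 326 and 897 CPM at 6wk. The lowest GV value was above the highest metaphase II value. Log2 differences were -5.20 for MSC-IVM-MII-12m minus GV-12m, -4.51 for MSC-IVM-MII-6wk minus GV-6wk, -4.03 for IVM-MII-12m minus GV-12m and -3.78 for IVM-MII-6wk minus GV-6wk. Within title prefixes they were -4.74, -4.46, -3.39 and -3.67. Its share of the class was 1.88% to 13.5% in 10 metaphase II oocytes, and 24.2% and 55.8% in the MSC-IVM-MII-6wk and IVM-MII-6wk oocytes with Y01 titles.

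**Figure D2:**
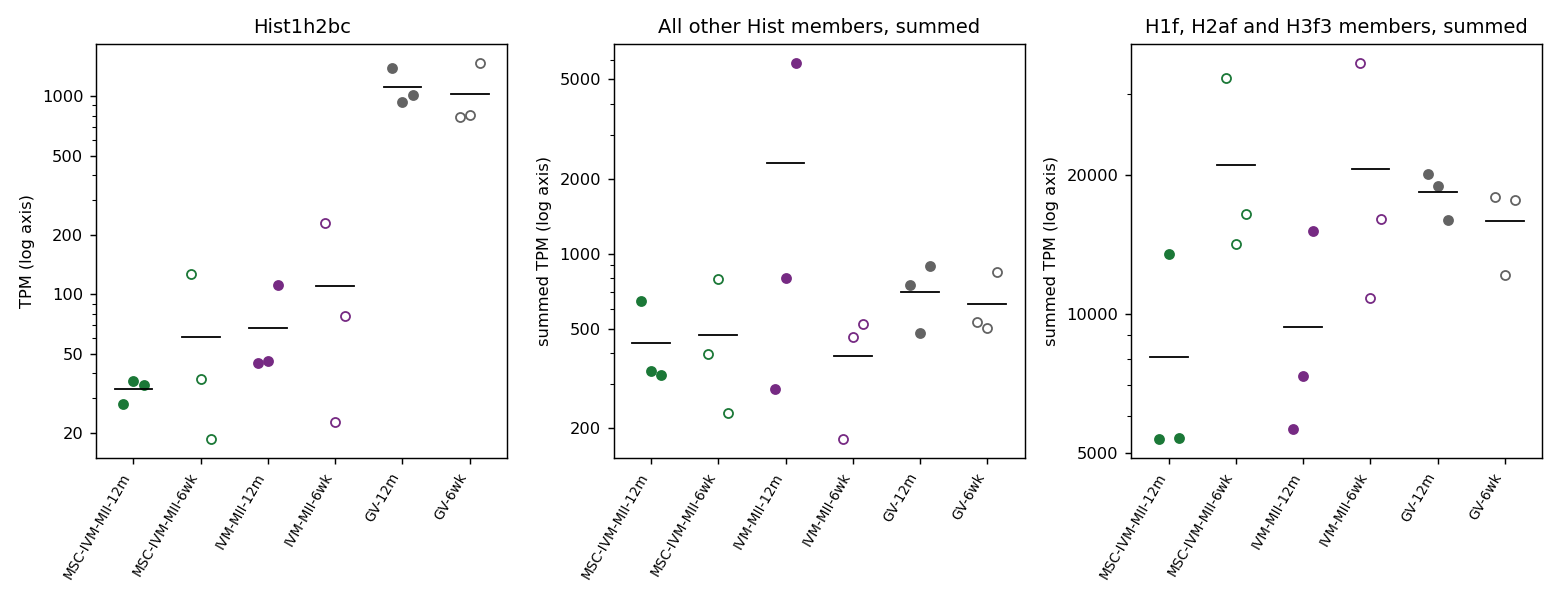
TPM (log axis) of Hist1h2bc, of all other Hist members summed and of the H1f, H2af and H3f3 members summed, in each oocyte. Points are oocytes, filled at 12m and open at 6wk, and bars are means of 3. Hist1h2bc separates metaphase II from GV oocytes, while the sum of the other Hist members overlaps, with IVM-MII-12m oocyte 3 at 5827 TPM.

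Without Hist1h2bc, the other Hist genes summed to 181 to 5827 TPM in metaphase II oocytes (median 430.3) and 479 to 889 TPM in GV oocytes (median 639). The stages overlapped. The variant genes together reached 5349.8 to 34976 TPM in metaphase II and 12132 to 20107 TPM in GV oocytes, of which H1foo was 23.4 to 90.8% and 77.3 to 89.7%. Counts were found for 14 to 39 Hist genes per metaphase II oocyte and 29 to 39 per GV oocyte. Hist genes were also grouped by their annotated 3' end, which need not be the true one. The 23 Hist genes with no stem-loop in the annotated transcript, Hist1h2bc among them, averaged 39.9, 49.8, 124 and 73.5 summed CPM in MSC-IVM-MII-12m, MSC-IVM-MII-6wk, IVM-MII-12m and IVM-MII-6wk oocytes. In GV-12m and GV-6wk oocytes they averaged 691 and 564. Hist1h2bc alone averaged 671 CPM in GV-12m and was most of the GV-6wk sum too. The remaining genes of this kind had a higher summed mean in each metaphase II group than in GV oocytes of the same age, with overlapping oocytes. The 22 genes with under 100 bases after the stem-loop averaged 37.1, 42.8, 232 and 22.4 summed CPM in the same 4 groups, against 117 and 104 in GV-12m and GV-6wk. The 22 genes with 100 or more bases after it averaged 67.5, 58.3, 232 and 68.0, against 112 and 100.97. In IVM-MII-12m the means rest on oocyte 3. Without oocyte 3 they were 58.0 for genes with no stem-loop, 58.8 for those with under 100 bases after it and 93.8 for those with 100 or more. All were below the GV-12m means, but for genes with no stem-loop this rested on Hist1h2bc. The other genes of that kind were above their GV-12m mean.

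Members beyond 2-fold between stages were counted against all 12037 genes tested, of which more were lower than higher after maturation. In MSC-IVM-MII-12m oocytes 2 of 26 Hist genes were higher and 12 lower than in GV-12m, while 16.7% of all genes were higher and 41.7% lower. MSC-IVM-MII-6wk oocytes had 4 higher and 9 lower than GV-6wk, beside 21.4% and 35.2% of all genes. In IVM-MII-12m oocytes 9 were higher and 6 lower than in GV-12m, beside 16.1% and 39.0%. IVM-MII-6wk oocytes had 1 higher and 9 lower than GV-6wk, beside 16.7% and 39.3%. The lower genes were 46.2%, 34.6%, 23.1% and 34.6% of the 26 in that order, near the background except in IVM-MII-12m, where they were fewer and the higher genes, 34.6%, were more. Median log2 differences of the 26 genes were -0.78, -0.10, 0.40 and -0.31 in that order, against -0.60, -0.29, -0.52 and -0.52 over all genes.

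These counts and medians move with single oocytes. The count of higher Hist genes in IVM-MII-12m ran from 7 to 14 with 1 oocyte left out, and was 14 without IVM-MII-12m oocyte 1. In MSC-IVM-MII-6wk it was 7 without oocyte 3, and in MSC-IVM-MII-12m it ran from 1 without oocyte 1 to 4 without oocyte 3 or GV-12m oocyte 1. Within title prefixes it was 15 in IVM-MII-12m and 5 in MSC-IVM-MII-12m. At 12m that setting leaves out GV-12m oocyte 1, whose prefix no metaphase II oocyte holds. It weights prefixes equally, so IVM-MII-12m oocyte 3 and GV-12m oocyte 3, each alone with its prefix in its group, count for more. In IVM-MII-6wk the count of higher Hist genes was 5 without oocyte 1 and 2 without any other oocyte of either group. The median in IVM-MII-12m was -0.32 without oocyte 3, that in IVM-MII-6wk was 0.19 without oocyte 1, and that in MSC-IVM-MII-6wk was above 0 without oocyte 1, oocyte 3 or GV-6wk oocyte 3.

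For the 10 variant genes the numbers higher and lower than in GV oocytes of the same age were 2 and 8 in MSC-IVM-MII-12m, 2 and 6 in MSC-IVM-MII-6wk, 1 and 6 in IVM-MII-12m, and 2 and 5 in IVM-MII-6wk. The higher ones were H3f3b throughout and H1f0 outside IVM-MII-12m. H2afj, H2afv, H2afx, H2afy2 and H3f3a were lower in all 4 comparisons. Shares of all genes in each single comparison are those given for the Hist genes. The share of all genes lower in all 4 comparisons was not computed, nor was the share whose stages did not overlap. Median log2 differences were -2.26, -1.83, -1.79 and -0.97. The count of higher variant genes became 1 in MSC-IVM-MII-12m without GV-12m oocyte 1, 1 in MSC-IVM-MII-6wk without oocyte 3 or GV-6wk oocyte 2, and 0 in IVM-MII-12m without oocyte 1. Within title prefixes it was 1 in both co-cultured groups, as H1f0 in MSC-IVM-MII-12m and H3f3b in MSC-IVM-MII-6wk were then within 2-fold. The comparisons of MSC-IVM-MII and of IVM-MII with GV share their GV oocytes.

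**Figure D3:**
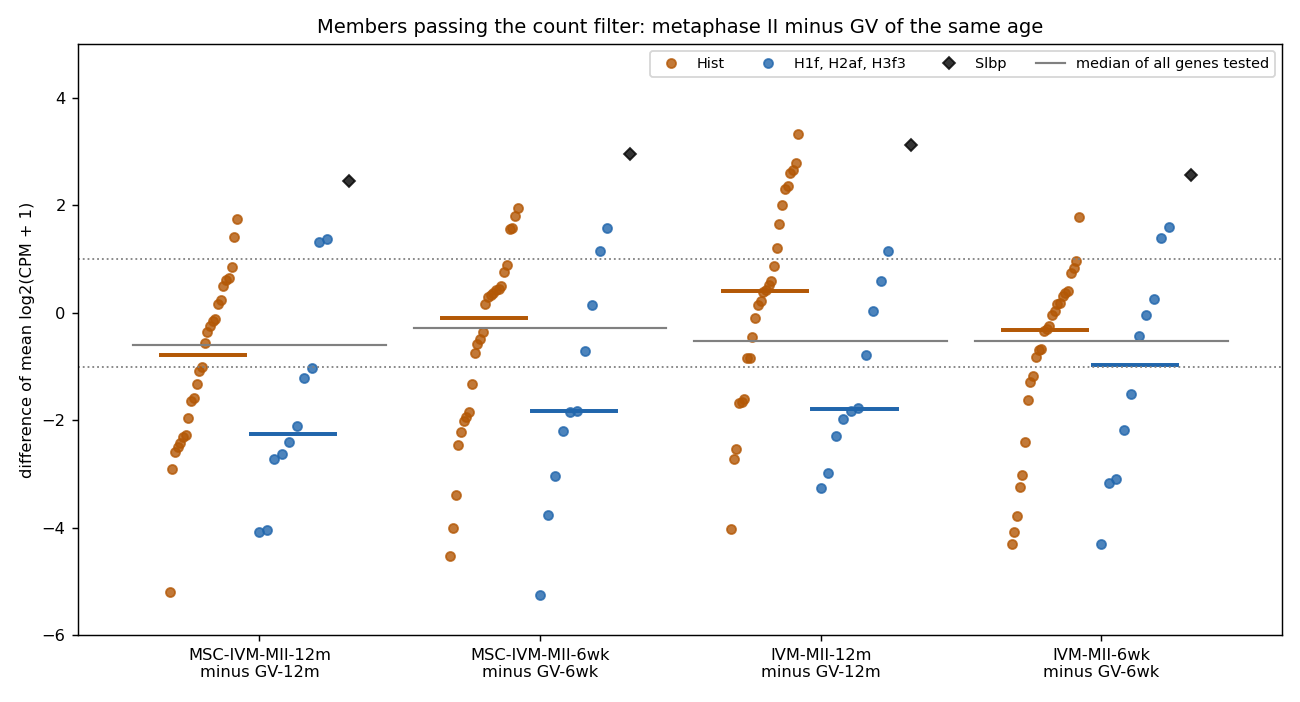
Differences of mean log2(CPM + 1), metaphase II minus GV of the same age, for the 37 members that passed the filter on low counts. Each point is a gene (orange Hist, blue H1f, H2af and H3f3, black Slbp), coloured bars are class medians, grey lines the median of all 12037 genes and dotted lines the 2-fold limits. Slbp lies above 2 in all 4 comparisons, and H2afj, H2afv, H2afx, H2afy2 and H3f3a lie below -1 in all 4.

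Hist3h2a, an H2A gene, also separated the stages. It had 2.23, 1.25 and 2.77 CPM in MSC-IVM-MII-12m oocytes and 0.845, 0 and 0.345 CPM in MSC-IVM-MII-6wk oocytes. IVM-MII oocytes had 0, 3.01 and 9.34 CPM at 12m and 0, 0 and 1.14 CPM at 6wk, against 37.6, 24.3 and 10.9 CPM in GV-12m and 17.5, 20.2 and 25.5 CPM in GV-6wk oocytes. No metaphase II value reached the lowest GV value, and log2 differences lay between -4.08 (IVM-MII-6wk) and -2.71 (IVM-MII-12m). Hist1h4h and Hist1h4i, both H4 genes of low level, were lower beyond 4-fold in 3 of the 4 comparisons each, all but IVM-MII-12m. Hist1h4h had 9, 15 and 2 counts in MSC-IVM-MII-12m, MSC-IVM-MII-6wk and IVM-MII-6wk oocytes, against 163 in GV-12m and 107 in GV-6wk. Hist1h4i had 8, 6 and 0 counts in those groups, against 114 and 75. In MSC-IVM-MII-12m oocytes Hist1h1c (H1.2) and Hist1h4a also lay beyond 4-fold below GV-12m, at -2.50 and -2.30. All 4 of these genes were short of 4-fold in MSC-IVM-MII-12m without GV-12m oocyte 1, at -1.86 for Hist1h4h, -1.70 for Hist1h4i, -1.97 for Hist1h1c and -1.68 for Hist1h4a.

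Hist1h2ap, an H2A gene that shares 93.1% of its 50-base windows with other genes, had 2.68, 0 and 4.36 CPM in MSC-IVM-MII-12m oocytes and 0, 5.68 and 0 CPM in MSC-IVM-MII-6wk oocytes. It had 5.81, 0.601 and 10.8 CPM in IVM-MII-12m oocytes, no count in IVM-MII-6wk oocytes, 17.4, 5.15 and 36.4 CPM in GV-12m and 18.8, 6.32 and 52.5 CPM in GV-6wk oocytes. It was lower after maturation, without overlap except in IVM-MII-12m, where the log2 difference was -1.68 and -0.85 without IVM-MII-12m oocyte 2 or -1.07 without GV-12m oocyte 3. Hist3h2ba, an H2B gene, had 26.3, 3.89 and 2.97 CPM in MSC-IVM-MII-12m oocytes and 2.11, 9.36 and 12.8 CPM in MSC-IVM-MII-6wk oocytes. It had 10.2, 22.04 and 9.55 CPM in IVM-MII-12m and 4.96, 19.6 and 55.4 CPM in IVM-MII-6wk oocytes, and 61.5, 18.4 and 12.1 CPM in GV-12m and 23.1, 26.0 and 44.3 CPM in GV-6wk oocytes. Its only non-overlapping difference between stages was -2.02, for MSC-IVM-MII-6wk minus GV-6wk.

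IVM-MII-12m oocyte 3 differed from all other metaphase II oocytes in its replication-dependent histone genes. Its Hist genes other than Hist1h2bc summed to 1288 CPM, against 49.6 to 262 CPM in the other 11 metaphase II oocytes. It held the highest value of all 18 oocytes for 25 of the 55 Hist genes with a count, and of the 12 metaphase II oocytes for 30 of 46. These include genes with few counts. Of the 26 Hist genes that passed the filter, 17 were highest of the metaphase II oocytes in this oocyte. The same share over all genes was not computed, and the oocyte was singled out by these same values. The counts therefore do not show a trait particular to Hist genes. Its mitochondrial share was 6.04%, and its summed cumulus and granulosa markers were 43.1 CPM, within the range of the other metaphase II oocytes. By family its Hist genes reached 2503 TPM for H4, 1978 for H2B, 1108 for H2A, 295 for H3 and 54.7 for H1. Its 6 dividing cell markers summed to 767 CPM, against 499 to 928 CPM over all metaphase II oocytes. The cause of its histone levels was not tested.

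Hist1h4c, an H4 gene (chr13:23697635-23698454, minus strand), had 8.92, 5.42 and 7.92 CPM in MSC-IVM-MII-12m oocytes and 5.28, 28.4 and 2.76 CPM in MSC-IVM-MII-6wk oocytes. It had 12.0, 43.7 and 256 CPM in IVM-MII-12m oocytes and 0.451, 12.1 and 11.1 CPM in IVM-MII-6wk oocytes. GV oocytes had 9.80, 5.15 and 1.21 CPM at 12m and 6.45, 2.19 and 3.55 CPM at 6wk. All 3 IVM-MII-12m oocytes were above the GV-12m oocytes, and the difference of 3.33 was 2.19 without IVM-MII-12m oocyte 3. Hist1h4n, another H4 gene, had 4.91, 0.139 and 0 CPM in MSC-IVM-MII-12m oocytes and 0, 4.01 and 0 CPM in MSC-IVM-MII-6wk oocytes. It had 0, 6.81 and 77.9 CPM in IVM-MII-12m and 0, 0 and 4.00 CPM in IVM-MII-6wk oocytes, and 0, 0.880 and 0 CPM in GV-12m and 0.538, 0.730 and 0.355 CPM in GV-6wk oocytes. The high value is again that of IVM-MII-12m oocyte 3. Hist4h4, an H4 gene outside the large clusters, had 17.4, 2.92 and 3.17 CPM in MSC-IVM-MII-12m oocytes and 4.01, 14.4 and 6.56 CPM in MSC-IVM-MII-6wk oocytes. It had 4.97, 10.2 and 84.9 CPM in IVM-MII-12m and 0.225, 8.70 and 9.42 CPM in IVM-MII-6wk oocytes, and 18.3, 2.77 and 1.51 CPM in GV-12m and 4.57, 6.81 and 4.26 CPM in GV-6wk oocytes. Without IVM-MII-12m oocyte 3, the differences from GV-12m were 1.18 for Hist1h4n, in place of 2.79, and 0.53 for Hist4h4, in place of 1.66. They also moved to 4.33 for Hist1h4n without IVM-MII-12m oocyte 1, and for Hist4h4 to 2.54 without GV-12m oocyte 1 and 1.07 without GV-12m oocyte 3. Within title prefixes, which leaves out GV-12m oocyte 1 and gives IVM-MII-12m oocyte 3 more weight, Hist4h4 differed by 3.11.

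Among H2B genes, Hist1h2ba, the testis-type H2B that oocytes also express, had 1.78, 0 and 0.792 CPM in MSC-IVM-MII-12m oocytes and 2.11, 14.0 and 3.80 CPM in MSC-IVM-MII-6wk oocytes. It had 1.70, 4.61 and 99.8 CPM in IVM-MII-12m and 0, 2.48 and 5.42 CPM in IVM-MII-6wk oocytes, and 1.78, 0.377 and 0.757 CPM in GV-12m and 1.61, 0.486 and 0 CPM in GV-6wk oocytes. Its difference of 2.61 for IVM-MII-12m minus GV-12m was 1.04 without IVM-MII-12m oocyte 3. Hist1h2bj had 2.23, 0 and 0 CPM in MSC-IVM-MII-12m oocytes and 2.75, 5.35 and 0.345 CPM in MSC-IVM-MII-6wk oocytes. It had 2.79, 9.02 and 92.4 CPM in IVM-MII-12m and 0, 4.66 and 0 CPM in IVM-MII-6wk oocytes, and 2.005, 1.13 and 3.03 CPM in GV-12m and 0.806, 0.486 and 3.19 CPM in GV-6wk oocytes. Its difference of 2.37 became 1.06 without that oocyte. Hist1h2bk had 6.69, 5.00 and 6.53 CPM in MSC-IVM-MII-12m oocytes and 6.13, 17.0 and 7.598 CPM in MSC-IVM-MII-6wk oocytes. It had 3.63, 9.82 and 75.6 CPM in IVM-MII-12m and 0, 11.8 and 5.42 CPM in IVM-MII-6wk oocytes, and 11.8, 9.68 and 7.27 CPM in GV-12m and 6.45, 7.30 and 6.39 CPM in GV-6wk oocytes. Hist1h2bb, at lower levels, differed from GV-12m by 2.01 in IVM-MII-12m and by 0.69 without that oocyte, or 3.14 without IVM-MII-12m oocyte 1. It also differed by -2.36 for MSC-IVM-MII-12m minus IVM-MII-12m and by 2.27 for IVM-MII-12m minus IVM-MII-6wk, both with overlap. Without IVM-MII-12m oocyte 3 these were -1.05 and 0.96.

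Some members are near-identical copies, and the deposited counts divide reads among copies, so single values are uncertain. Hist2h2aa1 had 31.2, 13.9 and 16.04 CPM in MSC-IVM-MII-12m oocytes and 14.2, 20.7 and 8.98 CPM in MSC-IVM-MII-6wk oocytes. It had 15.3, 50.3 and 243 CPM in IVM-MII-12m and 2.70, 19.6 and 12.3 CPM in IVM-MII-6wk oocytes, and 99.6, 48.9 and 24.7 CPM in GV-12m and 45.4, 36.2 and 85.8 CPM in GV-6wk oocytes. At 6wk both metaphase II groups were below GV, at -1.84 in MSC-IVM-MII-6wk and -2.40 in IVM-MII-6wk. Its copy Hist2h2aa2 had 160 counts in GV-12m and 0 in GV-6wk, at least 11.1-fold higher against a floor of 3 counts per oocyte. All of its 50-base windows also occur in other genes. Summed, both copies had 118, 54.6 and 29.8 CPM in GV-12m and 45.4, 36.2 and 85.8 CPM in GV-6wk oocytes, which overlap. Hist2h3c2, an H3 gene, had 68.3, 7.91 and 6.73 CPM in MSC-IVM-MII-12m oocytes and 0.634, 31.8 and 0 CPM in MSC-IVM-MII-6wk oocytes. It had 14.5, 27.3 and 67.7 CPM in IVM-MII-12m and 0, 17.7 and 9.99 CPM in IVM-MII-6wk oocytes, and 6.68, 5.03 and 4.39 CPM in GV-12m and 9.41, 3.41 and 17.4 CPM in GV-6wk oocytes. The sum of Hist2h3b, Hist2h3c1 and Hist2h3c2 was 78.1, 15.7 and 10.7 CPM in MSC-IVM-MII-12m, 18.05, 34.3 and 93.4 CPM in IVM-MII-12m and 8.69, 5.03 and 8.94 CPM in GV-12m oocytes. At 6wk it was 17.3, 38.8 and 19.7 CPM in MSC-IVM-MII-6wk, 24.3, 25.8 and 19.4 CPM in IVM-MII-6wk and 14.5, 14.6 and 31.6 CPM in GV-6wk oocytes. The metaphase II sums were above the GV sums at 12m without overlap, and overlapped with them at 6wk. Of single copies, Hist2h3b differed by 2.65 and Hist2h2aa2 by -2.53 for IVM-MII-12m minus GV-12m, both without overlap. Hist2h3c1 differed by -2.28 for GV-12m minus GV-6wk with overlap, or -1.87 without GV-12m oocyte 1.

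**Figure D4:**
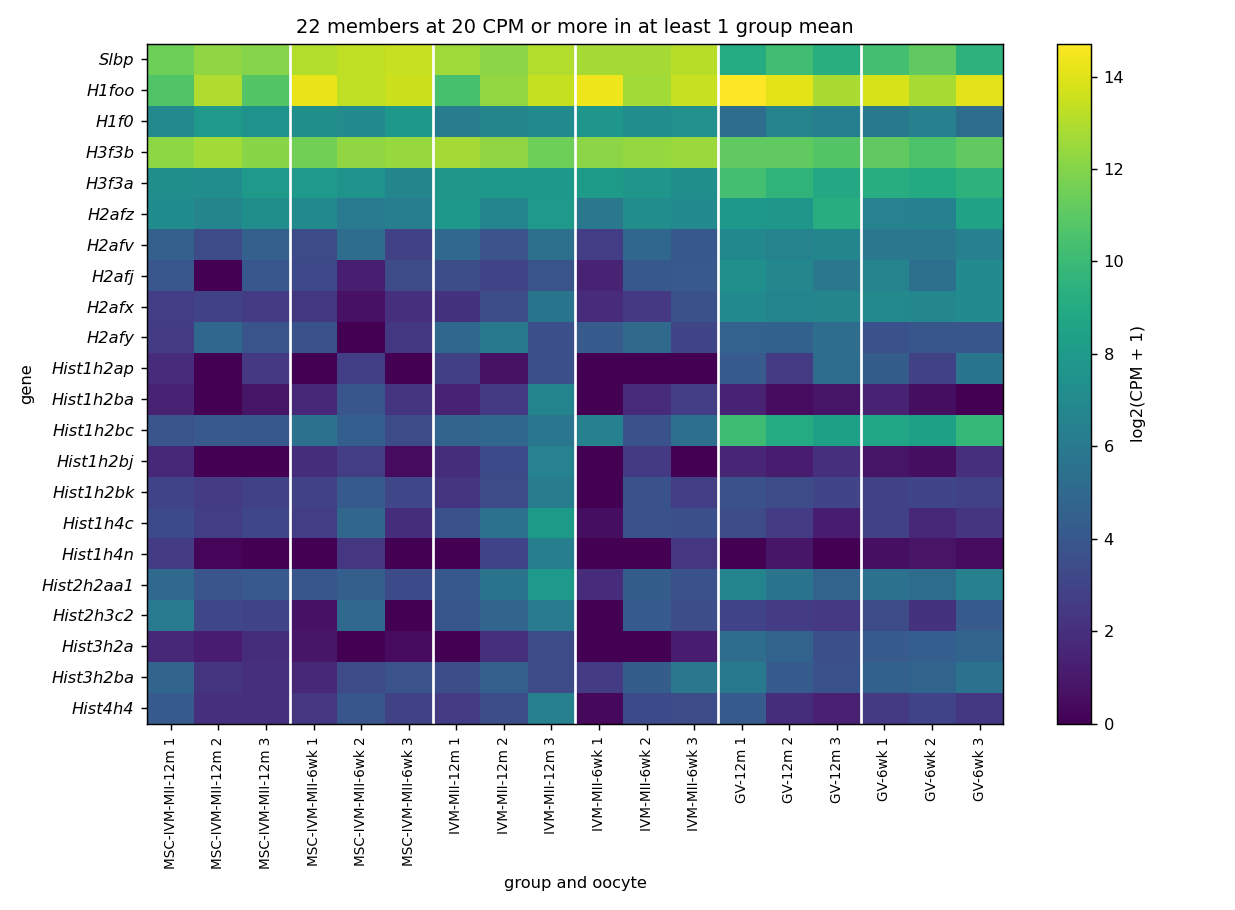
Level, as log2(CPM + 1), of the 22 members with a group mean of at least 20 CPM in 1 or more groups, in each of the 18 oocytes. Rows are genes, and columns are oocytes by group, metaphase II left of GV. IVM-MII-12m oocyte 3 holds the highest values of Hist1h4c (256 CPM) and Hist2h2aa1 (243 CPM), and Hist1h2bc is highest in the GV columns.

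Co-culture was compared with maturation without it at each age. At 12m 0 of 26 Hist genes were higher and 14 lower in MSC-IVM-MII-12m than in IVM-MII-12m oocytes, beside 10.3% and 15.2% of all genes, with a median of -1.14 against -0.10. Without IVM-MII-12m oocyte 3 the lower count was 6 and the median -0.48. At 6wk, 7 were higher and 3 lower in MSC-IVM-MII-6wk than in IVM-MII-6wk oocytes, beside 16.2% and 5.22% of all genes, with a median of 0.57 against 0.20. The higher count was 4 without MSC-IVM-MII-6wk oocyte 2 and 3 without IVM-MII-6wk oocyte 1, and the lower count was 5 in each case. With both Y01 oocytes left out, a setting added once the data were known, the median was 0.06 with 5 genes higher and 5 lower. Medians of the Hist genes had opposite signs at the 2 ages, and the counts at both ages moved with single oocytes.

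Among single members, Hist1h2bc was lower in MSC-IVM-MII-12m than in IVM-MII-12m oocytes without overlap, at -1.17, or -0.86 without IVM-MII-12m oocyte 3. Hist1h4c and Hist1h2bj were also lower without overlap, at -2.68 and -3.37, or -1.54 and -2.06 without that oocyte. Of the variant genes, H2afx and H2afy passed 2-fold, at -1.09 and -1.05, both with overlap, and H2afx was at -0.14 without it and -1.90 without IVM-MII-12m oocyte 1. H2afy was within 2-fold without MSC-IVM-MII-12m oocyte 1 (-0.44), IVM-MII-12m oocyte 1 (-0.99) or IVM-MII-12m oocyte 2 (-0.49). At 6wk H2afy was lower, at -2.10, and at -1.08 without MSC-IVM-MII-6wk oocyte 2. Slbp differed by -0.67 at 12m and 0.40 at 6wk, H1foo by -0.58 and 0.20, H3f3a by -0.34 and -0.31, and H3f3b by 0.17 and -0.24, all with overlapping oocytes. Within title prefixes the H1foo difference at 12m passed 2-fold, at -1.11.

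Age was compared within each kind of oocyte, 12m minus 6wk. In IVM-MII oocytes 16 of 26 Hist genes were higher at 12m and 0 lower, beside 18.1% and 9.08% of all genes, and the median was 1.61 against 0.16. Without IVM-MII-12m oocyte 3 the higher count was 8 and the median 0.71. The lower count was 3 without IVM-MII-6wk oocyte 3. The Hist gene with the largest such difference was Hist1h4c, at 3.11, or 1.97 without that oocyte and 2.07 without IVM-MII-6wk oocyte 1. Hist1h3f, an H3 gene, differed by 2.40, or 1.34 without IVM-MII-12m oocyte 3. Co-cultured oocytes had 3 higher and 5 lower at 12m, beside 7.73% and 15.2% of all genes, with a median of -0.26. The lower count was 8 without MSC-IVM-MII-12m oocyte 1 and 3 without MSC-IVM-MII-6wk oocyte 2. GV oocytes had 3 higher and 1 lower at 12m, beside 9.46% and 4.28%, with a median of 0.10. The GV counts moved with 1 oocyte too, to 1 higher without GV-12m oocyte 1 or GV-6wk oocyte 1 and to 4 lower without GV-6wk oocyte 2. Genes of small nucleolar RNAs, checked as RNAs without a poly(A) tail, averaged 7.56 and 10.1 summed CPM in MSC-IVM-MII-12m and IVM-MII-12m oocytes. At 6wk they averaged 0 and 0.075, and in GV-12m and GV-6wk oocytes 0.042 and 0.36. Rn7sk, Rmrp and Rpph1, checked likewise, averaged 0.69 and 1.10 at 12m against 1.99 and 0.86 at 6wk, co-cultured oocytes first. Whether this bears on the Hist genes was not tested.

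Few variant genes passed 2-fold by age. In GV oocytes 1 of 10 was higher (H2afz, at 1.12, or 0.66 without GV-12m oocyte 3, 0.82 without GV-6wk oocyte 1 and 0.77 without GV-6wk oocyte 2). In IVM-MII oocytes H2afx was higher at 12m by 1.13, or 0.17 without IVM-MII-12m oocyte 3 and 0.74 without IVM-MII-6wk oocyte 1, and H1foo was lower as given above. The count of higher genes there was 3 without IVM-MII-12m oocyte 2 and 4 without IVM-MII-6wk oocyte 2. In co-cultured oocytes H2afy was higher by 1.76, or 0.75 without MSC-IVM-MII-6wk oocyte 2 and 1.17 without MSC-IVM-MII-12m oocyte 2, and H1foo was lower. Medians of the 10 genes were 0.18 for MSC-IVM-MII, 0.19 for IVM-MII and 0.33 for GV.

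Genes that act on histone mRNA were followed as a list of 18, all of which passed the filter. After maturation the numbers higher and lower by 2-fold were 6 and 8 in MSC-IVM-MII-12m, 6 and 6 in MSC-IVM-MII-6wk, 5 and 5 in IVM-MII-12m, and 6 and 6 in IVM-MII-6wk oocytes. Of all genes, 16.7% and 41.7%, 21.4% and 35.2%, 16.1% and 39.0%, and 16.7% and 39.3% were higher and lower in the same 4 groups. Lsm10, a subunit of the U7 particle that cleaves histone pre-mRNA, was the gene of the list that separated the stages furthest. It had 0, 0.139 and 26.9 CPM in MSC-IVM-MII-12m oocytes and 34.0, 3.68 and 4.49 CPM in MSC-IVM-MII-6wk oocytes. It had 42.9, 7.81 and 26.7 CPM in IVM-MII-12m oocytes and 6.76, 0.311 and 9.99 CPM in IVM-MII-6wk oocytes. GV oocytes had 1198, 768 and 327 CPM at 12m and 628, 305.3 and 812 CPM at 6wk. The lowest GV value was several times the highest metaphase II value, and log2 differences were -7.73 for MSC-IVM-MII-12m minus GV-12m, -5.80 for MSC-IVM-MII-6wk minus GV-6wk, -4.93 for IVM-MII-12m minus GV-12m and -6.81 for IVM-MII-6wk minus GV-6wk. Cpsf3, the endonuclease of the cleavage complex, was lower at 6wk, at -3.75 in IVM-MII-6wk and -2.69 in MSC-IVM-MII-6wk oocytes, the second with overlap and -1.26 without MSC-IVM-MII-6wk oocyte 3.

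Mif4gd, whose protein binds Slbp and links it to translation, was higher after maturation, with 205, 129 and 104 CPM in MSC-IVM-MII-12m oocytes and 74.4, 173 and 104 CPM in MSC-IVM-MII-6wk oocytes. It had 52.6, 307 and 109.8 CPM in IVM-MII-12m and 97.6, 177 and 93.9 CPM in IVM-MII-6wk oocytes, and 35.2, 29.5 and 23.8 CPM in GV-12m and 19.1, 28.0 and 22.7 CPM in GV-6wk oocytes. No GV oocyte reached the lowest metaphase II value, and differences ran from 2.02 (IVM-MII-12m) to 2.30 (IVM-MII-6wk). The IVM-MII-12m difference was 1.35 without oocyte 2 of that group. Those of MSC-IVM-MII-6wk and MSC-IVM-MII-12m also fell short of 4-fold, at 1.89 without MSC-IVM-MII-6wk oocyte 2 and 1.95 without MSC-IVM-MII-12m oocyte 1. Casp8ap2, also called FLASH, a partner of U7 in processing, was higher by 2.65 in MSC-IVM-MII-12m, 3.15 in MSC-IVM-MII-6wk and 2.47 in IVM-MII-12m oocytes. The first was 1.58 without MSC-IVM-MII-12m oocyte 2, the second overlapped, and the third was 1.98 without GV-12m oocyte 1. Tut7, a terminal uridylyl transferase, was higher by 2.37 in MSC-IVM-MII-12m, 2.03 in MSC-IVM-MII-6wk and 2.78 in IVM-MII-6wk oocytes, without overlap. The first of these was 1.85 without GV-12m oocyte 1, and the second 1.62 without GV-6wk oocyte 3. Tut4, the paralog of Tut7, was lower, at -2.27 in IVM-MII-12m, or -0.76 without GV-12m oocyte 3, the oocyte with granulosa markers. Cpsf2, a cleavage complex subunit, was higher by 2.40 in MSC-IVM-MII-6wk oocytes.

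The 27 genes of histone chaperones and variant deposition also all passed. In MSC-IVM-MII-12m, MSC-IVM-MII-6wk, IVM-MII-12m and IVM-MII-6wk oocytes 6, 13, 8 and 8 were higher and 7, 4, 8 and 5 lower than in GV oocytes of the same age. Shares of all genes are those given for the list of 18. Medians of the 27 genes were 0.15, 0.93, 0.37 and 0.45, where the median of all genes was below 0. Oip5, which acts in loading the centromeric histone CENP-A, was lower, at -4.34 in IVM-MII-6wk without overlap and at -3.01 in MSC-IVM-MII-12m with overlap. Chaf1b, a subunit of the CAF-1 chaperone that deposits H3 and H4 at replication, was lower, with differences of -4.80 for MSC-IVM-MII-12m minus GV-12m, -3.46 for MSC-IVM-MII-6wk minus GV-6wk, -3.28 for IVM-MII-12m minus GV-12m and -4.46 for IVM-MII-6wk minus GV-6wk. The third was -2.03 without IVM-MII-12m oocyte 3. Znhit1, of the complex that deposits H2A.Z, was lower, with differences of -4.02 for MSC-IVM-MII-12m minus GV-12m, -4.70 for MSC-IVM-MII-6wk minus GV-6wk, -4.16 for IVM-MII-12m minus GV-12m and -2.96 for IVM-MII-6wk minus GV-6wk. For both, every metaphase II value lay below every GV value of its age. Set, a histone chaperone, was lower, at -2.54 in MSC-IVM-MII-12m, or -1.58 without GV-12m oocyte 3. Ubn1, of the HIRA complex that deposits H3.3, was higher by 3.09 in MSC-IVM-MII-6wk and 2.01 in MSC-IVM-MII-12m oocytes, both with overlap, or 1.99 without GV-6wk oocyte 3 and 1.06 without GV-12m oocyte 1. Atrx, which deposits H3.3 at repeats, was higher by 2.33 in MSC-IVM-MII-12m with overlap, or 1.10 without oocyte 2 of that group.

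**Figure D5:**
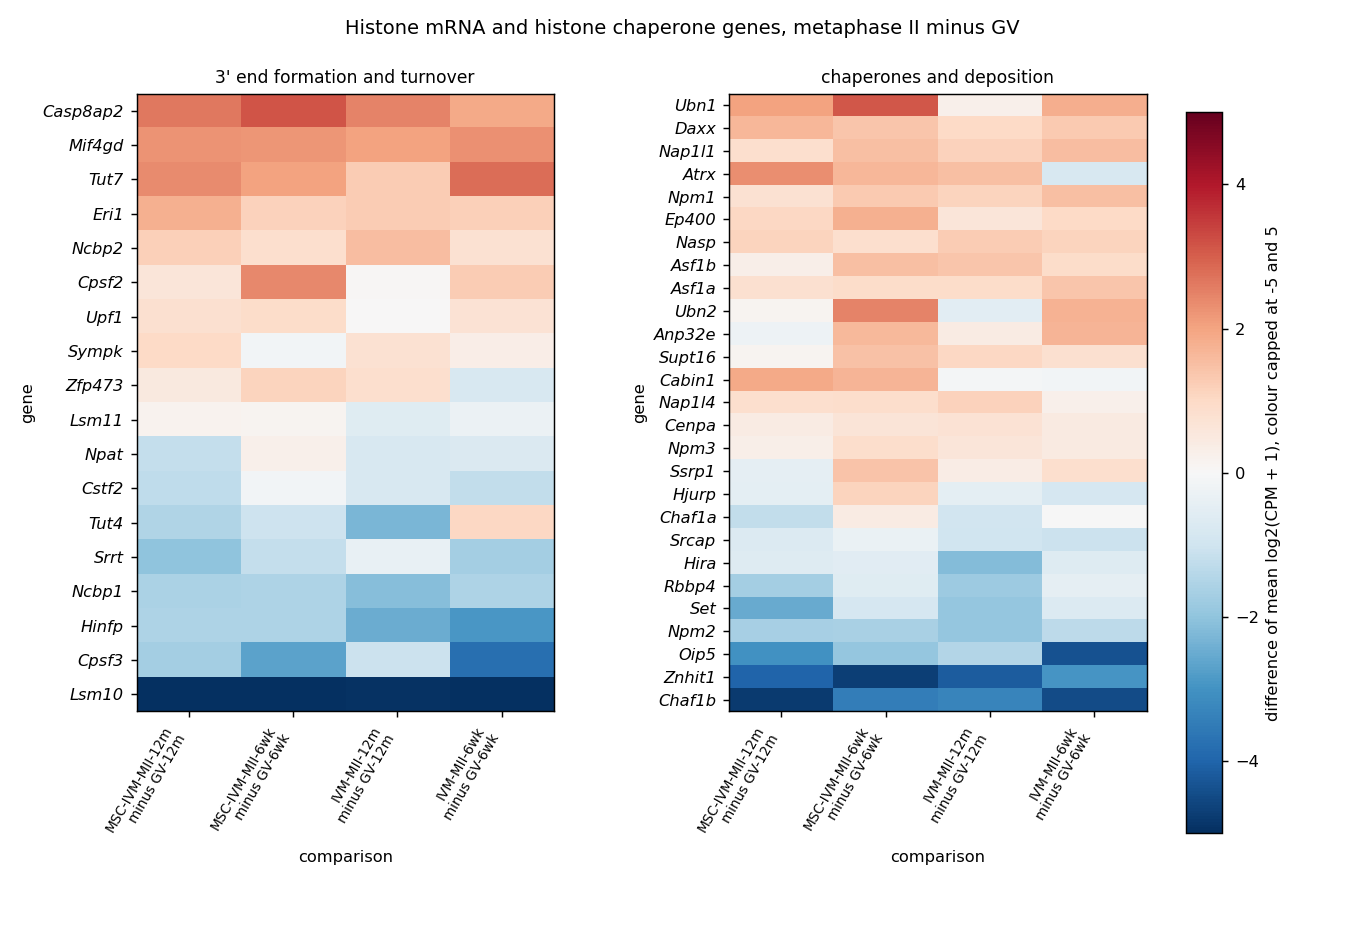
Differences of mean log2(CPM + 1), metaphase II minus GV of the same age, for 18 genes of histone mRNA 3' end formation and turnover (left) and 27 genes of histone chaperones and variant deposition (right). Red is higher and blue lower in metaphase II, with the colour capped at 5. Lsm10 is darkest blue, at -7.73 to -4.93, and Chaf1b and Znhit1 are blue in all 4 comparisons.

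Between co-culture and no co-culture the first list had 1 higher and 2 lower at 12m and 7 higher and 1 lower at 6wk. The chaperone list had 3 and 3 at 12m and 5 and 1 at 6wk. Of all genes 10.3% and 15.2% were higher and lower at 12m, and 16.2% and 5.22% at 6wk. Beyond 4-fold were Lsm10 at 12m (-2.80), Cabin1 of the HIRA complex at 12m (2.004) and Atrx at 6wk (2.46), all with overlapping oocytes. The Atrx difference rests on IVM-MII-6wk oocyte 2, which had no count, and was 0.02 without it and 4.65 without IVM-MII-6wk oocyte 1. The Lsm10 difference was -4.37 without MSC-IVM-MII-12m oocyte 3. By age, 12m minus 6wk, the 2 lists had 2 and 1 genes higher and 1 and 1 lower in GV oocytes. They had 6 and 3 higher and 2 and 1 lower in IVM-MII oocytes, and 2 and 1 higher and 3 and 7 lower in MSC-IVM-MII oocytes. Of all genes 9.46% and 4.28% were higher and lower in GV, 18.1% and 9.08% in IVM-MII and 7.73% and 15.2% in MSC-IVM-MII oocytes. Beyond 4-fold by age were Lsm10 in IVM-MII oocytes, at 2.195, or 1.26 without IVM-MII-6wk oocyte 2, and Supt16 of the FACT complex in MSC-IVM-MII oocytes, at -2.22, or -0.30 without MSC-IVM-MII-12m oocyte 1 and -3.74 without oocyte 2.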

How the data were processed

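RNA from the supernatant of each single lysed oocyte was sequenced after SMART-seq2 amplification, and the 18 files hold 1 oocyte each. The submitters' processing notes name Cufflinks, TopHat2 2.1.1 and, for read checks, FastQC 0.11.8 with Trim Galore 0.4.5, and the builds GRCm38.p5 and mm10; the tool that made the gene values is not given in the sources used here. Per the file headers, the deposited values are expected counts, which split reads that match several genes, and TPM, which the authors scaled by effective length to a fixed total. Deposited FPKM values were not used.

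Expected counts were rounded to whole numbers. Genes were kept with edgeR 4.0.16 (filterByExpr, 12037 genes), scaled by the trimmed mean of M-values (TMM) and expressed as CPM. Differences are between group means of log2(CPM + 1), a scale that understates differences of low genes, and a gene counts as higher or lower from 2-fold. Folds against a group at 0 use a floor of 3 counts per oocyte. No test was made, since the labels name no animal or culture and each group counts as 1 sample; a group's 3 oocytes give an SD only. No pair of oocytes had near-identical counts (lowest chi-square per gene 27.9). Without molecular identifiers, PCR copies of 1 molecule are counted separately.

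Slbp, H1foo and members with a group mean of at least 20 CPM are given in every oocyte. Other members are named from 4-fold with 5 CPM in the higher group, and genes of the lists on histone mRNA and chaperones from 4-fold with 20 CPM. One gene of the chaperone list is not reported here, and the list's counts and medians leave it out. Members and lists were chosen with earlier results of these data known. Alternatives were DESeq2 1.42.0 size factors, unscaled totals, TPM, no mitochondrial genes, pseudocounts of 0.25 and 5, no filter, a filter on the mean, comparison within title prefixes, and leaving out each oocyte. The difference and the 2-fold call, but not the filter or the scaling factors, were run on simulated counts. Changes were set only in genes of at least 20 CPM, so calls on low members were not tested. Work was done in R 4.3.3 and Python 3.11.15 (Matplotlib 3.10.9, SciPy 1.17.1, pandas 2.3.3, NumPy 2.4.6).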

Additional observations from a re-analysis of the deposited data

How the results depend on the processing

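No paired analysis was possible because the labels pair no single oocytes between groups. Title prefixes held by both groups were compared instead, as means of the differences within a prefix. At 12m this left GV-12m oocyte 1 out of the comparisons with GV and gave IVM-MII-12m oocyte 3 more weight in its group. With 3 oocytes per group and no named animal, the values describe these oocytes. Depth limits single low members: Hist genes under a few CPM rest on a handful of counts. Of class medians under an alternative, 242 moved by less than the oocyte spread, 13 moved further and 11 changed sign; of the differences of single members and the counts, 125 moved by more than that spread, or for counts by over 1.5 times, and 3333 by less, and no called member changed direction. A smaller move can still end a call: of the 92 differences of 2-fold or more among the 22 members given per oocyte, 58 stayed beyond 2-fold whichever oocyte was left out. Within title prefixes, of 72 such differences 4 ended and 2 moved by over 1.5 times, and 11 others passed 2-fold. Those that ended were H1f0, Hist2h2aa1 (-0.66) and Hist3h2ba (-0.54) for MSC-IVM-MII-12m minus GV-12m and H3f3b for MSC-IVM-MII-6wk minus GV-6wk. The median of all genes shifted by -0.17 to 0.07 with DESeq2 size factors, by -0.16 to 0.29 with TPM and by up to 0.13 without mitochondrial genes. For those values that moved or changed sign the cause was not tested, apart from the fewer oocytes or other genes that a setting itself brings.

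The median difference of variant genes from GV of the same age was -1.11 in MSC-IVM-MII-12m, -0.46 in MSC-IVM-MII-6wk, -0.42 in IVM-MII-12m and -0.10 in IVM-MII-6wk without a filter, which adds genes at 0. With a pseudocount of 5 it was -1.64 in MSC-IVM-MII-12m and -1.22 in MSC-IVM-MII-6wk, with TPM -1.71 in MSC-IVM-MII-12m, and within title prefixes -1.98 in MSC-IVM-MII-12m and -1.24 in IVM-MII-12m. By TPM the age median of variant genes in MSC-IVM-MII oocytes was -0.046. The median of Hist genes for MSC-IVM-MII-6wk minus GV-6wk was 0.023 with a pseudocount of 5 and 0.066 with the filter on the mean.

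Leaving out 1 oocyte at a time gave these ranges of medians. For Hist genes they were -0.89 to -0.46 for MSC-IVM-MII-12m minus GV-12m, -0.40 to 0.14 for MSC-IVM-MII-6wk minus GV-6wk, -0.32 to 1.16 for IVM-MII-12m minus GV-12m and -0.82 to 0.19 for IVM-MII-6wk minus GV-6wk. Between cultures they were -1.49 to -0.48 at 12m and 0.03 to 0.82 at 6wk. By age they were -0.60 to 0.20 in MSC-IVM-MII, 0.71 to 2.096 in IVM-MII and -0.14 to 0.45 in GV oocytes. Signs changed to 0.19 without IVM-MII-6wk oocyte 1, to -0.32 without IVM-MII-12m oocyte 3, and for MSC-IVM-MII-6wk minus GV-6wk to 0.07 without MSC-IVM-MII-6wk oocyte 1, 0.14 without oocyte 3 and 0.03 without GV-6wk oocyte 3. By age they changed to -0.14 without GV-12m oocyte 1, -0.01 without GV-6wk oocyte 2, and 0.20 without MSC-IVM-MII-6wk oocyte 2.

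For variant genes the ranges were -2.54 to -1.87, -2.02 to -1.37, -2.04 to -1.38 and -1.20 to -0.59 for MSC-IVM-MII-12m, MSC-IVM-MII-6wk, IVM-MII-12m and IVM-MII-6wk minus GV. Between cultures they were -0.56 to -0.24 at 12m and -0.48 to -0.13 at 6wk, and by age 0.05 to 0.43 in MSC-IVM-MII, 0.11 to 0.40 in IVM-MII and 0.02 to 0.67 in GV oocytes.

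Counts of Hist genes beyond 2-fold that moved by over 1.5 times with the setting ran from 1 to 5 higher (MSC-IVM-MII-12m, main 2), 0 to 6 higher (MSC-IVM-MII-6wk, main 4), 8 to 15 higher (IVM-MII-12m, main 9) and 0 to 4 higher (IVM-MII-6wk, main 1) against GV. For MSC-IVM-MII-6wk minus IVM-MII-6wk they ran from 0 to 13 higher (main 7) and 1 to 5 lower (main 3). For MSC-IVM-MII-12m minus IVM-MII-12m they ran from 9 to 18 lower (main 14) and 0 to 1 higher (main 0). By age they ran from 10 to 21 higher in IVM-MII (main 16), 1 to 5 higher and 1 to 3 lower in GV (main 3 and 1), and 1 to 4 higher and 0 to 7 lower in MSC-IVM-MII oocytes (main 3 and 5). With the setting, oocytes left out aside, counts of variant genes moved by at most 2 genes, as for MSC-IVM-MII-12m minus IVM-MII-12m (0 to 4 lower, main 2) and MSC-IVM-MII-6wk minus IVM-MII-6wk (1 to 3 lower, main 1). Without both Y01 metaphase II oocytes, chosen after the data were seen, the lower variant count between cultures at 6wk was 3 (main 1).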
